A study of Rattus norvegicus with 2 samples.

Results

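The set comprised 10 genes of rat skin libraries: the MyoD family of muscle transcription factors (Myod1, Myog, Myf5 and Myf6), the satellite cell factor Pax7, the muscle transcription factor Mef2c, the acetylcholine receptor subunits Chrna1 and Chrng, and Runx1 and Ncam1, which muscle fibres express after loss of their nerve. They were chosen by symbol and for their known roles, with earlier results of these data known. All 10 matched 1 row each among 22312 genes of the deposited table. The tissue came from male Sprague-Dawley rats of 4 weeks, and the table compared 1 library of skin that had received a single 45 Gy dose of electron beam radiation with 1 library of skin from a non-irradiated area. Each group was thus a single library, so none of the differences below could be set against replicate spread and none was tested. The labels do not state the time between radiation and sampling, the number of animals or any pooling of their RNA. The irradiated library carries the title NC, which the labels do not expand; its group was taken from the source label, and all directions would invert if these labels were exchanged. Both libraries held abundant transcripts of skeletal muscle, with 18 markers of mature fibres taking 29.9% of the reads in irradiated and 33.3% in non-irradiated skin, so muscle genes could be read in both.

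MyoD family proteins are basic helix-loop-helix factors that pair with E proteins, bind the E-box CANNTG and switch on muscle genes together with MEF2 proteins. Pax7 marks the satellite cells, the stem cells of muscle, in which Myf5 and Myod1 act early, while Myog drives differentiation and Myf6 is the family member that prevails in mature fibres. The muscle acetylcholine receptor is built from alpha (Chrna1), beta (Chrnb1) and delta (Chrnd) subunits with either gamma (Chrng) in fetal muscle or epsilon (Chrne) in innervated adult muscle. In rodents, cutting the nerve of a muscle raises Myog, Chrna1, Chrng, Runx1 and Ncam1 in its fibres.

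The promoters of Myog, Chrna1, Chrng and Chrne are shown as those of a factor of the set, of its receptor genes and of the adult counterpart of Chrng. Each line runs 5′ to 3′ from 250 bases before to 50 bases after the gene start in RefSeq (build GRCr8), and the coordinates and strands are chr13:48297226-48297525 (plus) for Myog, chr3:78877304-78877603 (minus) for Chrna1, chr9:95325734-95326033 (plus) for Chrng and chr10:55834105-55834404 (minus) for Chrne. Capitals mark each CANNTG, the match to the MEF2 consensus in Myog and the N-box of Chrne.
Myog: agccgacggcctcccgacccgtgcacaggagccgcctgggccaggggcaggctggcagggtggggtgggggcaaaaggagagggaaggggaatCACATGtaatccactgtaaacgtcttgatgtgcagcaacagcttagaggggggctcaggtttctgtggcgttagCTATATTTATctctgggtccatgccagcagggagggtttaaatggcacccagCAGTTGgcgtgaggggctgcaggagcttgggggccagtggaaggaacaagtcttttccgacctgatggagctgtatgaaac
Chrna1: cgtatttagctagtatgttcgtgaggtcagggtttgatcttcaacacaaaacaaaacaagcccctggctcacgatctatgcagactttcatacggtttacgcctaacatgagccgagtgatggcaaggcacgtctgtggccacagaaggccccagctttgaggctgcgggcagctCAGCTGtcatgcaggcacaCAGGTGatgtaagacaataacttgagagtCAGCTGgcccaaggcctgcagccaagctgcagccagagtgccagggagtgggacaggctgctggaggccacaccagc
Chrng: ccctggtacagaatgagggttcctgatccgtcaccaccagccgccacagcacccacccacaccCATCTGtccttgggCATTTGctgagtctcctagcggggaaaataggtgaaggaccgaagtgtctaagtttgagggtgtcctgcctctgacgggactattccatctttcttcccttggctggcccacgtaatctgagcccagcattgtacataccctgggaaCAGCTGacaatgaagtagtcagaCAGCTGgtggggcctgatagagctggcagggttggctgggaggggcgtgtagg
Chrne: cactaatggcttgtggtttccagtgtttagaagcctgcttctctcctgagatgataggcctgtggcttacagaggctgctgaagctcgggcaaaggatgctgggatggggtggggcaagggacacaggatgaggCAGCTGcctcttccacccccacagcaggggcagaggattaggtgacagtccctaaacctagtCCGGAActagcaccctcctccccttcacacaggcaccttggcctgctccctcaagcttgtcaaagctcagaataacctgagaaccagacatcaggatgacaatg

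The search read CANNTG, its stricter form CAGCTG (a subset of CANNTG) and the N-box CCGGAA, a motif known from receptor genes active under the synapse, on both strands. CANNTG stood in 72.1% of 33469 RefSeq promoters of 300 bases, CAGCTG in 15.1%, at least 2 copies of CAGCTG in 1.69%, and CCGGAA in 15.0%. Chrna1 had CAGCTG 75 and 27 bases before its start and CAGGTG 56 bases before it. Chrng had CAGCTG 26 and 3 bases before its start. Chrne had a single CAGCTG, 116 bases before its start, and the N-box 54 bases before it. Myog had CAGTTG 31 bases before its start and CACATG 157 bases before it. The MEF2 consensus, read on both strands with any last base, matched 8.25% of the promoters; in Myog it matched CTATATTTAT, 83 bases before the start. Promoters of 7 of the 10 genes were in the table, of which 5 held a CANNTG, 2 a CAGCTG and 3 (Myog, Myf6 and Runx1) a match to the MEF2 consensus. A match of letters does not show that a factor binds.

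With 1 FPKM added, none of the 6 set genes averaging at least 1 FPKM differed by 2-fold or more between the libraries. Without the added 1, the irradiated FPKM of Runx1 was 2.10 times the non-irradiated one. The other 4 genes lay below that mean and were not counted. The measure was log2((irradiated FPKM + 1)/(non-irradiated FPKM + 1)), where FPKM is read density per transcript length and library size. A gene was counted only with a mean of at least 1 FPKM, which 6 of the 10 genes reached: Mef2c, Myf6, Myod1, Myog, Chrna1 and Runx1. Of 9743 such genes in the table, 11.2% differed by 2-fold or more, 9.70% being higher and 1.53% lower in irradiated skin. The median log2 ratio of the 6 genes was 0.44 and that of all 9743 genes was 0.21. Of the 6, 4 had positive ratios, Chrna1 (0.60), Runx1 (0.53), Myod1 (0.46) and Mef2c (0.42), and 2 had negative ones, Myf6 (-0.44) and Myog (-0.72). Relative to the median of all genes these were 0.39 for Chrna1, 0.32 for Runx1, 0.25 for Myod1, 0.21 for Mef2c, -0.65 for Myf6 and -0.93 for Myog. In the order of all 9743 ratios from the highest down, Chrna1 was at place 2249 and Mef2c at 3266, while Myf6 was at 8922 and Myog at 9418. Positive ratios in that order ended between place 6617 (Neb, 0.0019) and place 6665 (Col1a2, -0.0039), so most of all genes had them too. Fewer muscle cells and less RNA per cell cannot be told apart in such bulk libraries.

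**Figure D1:**
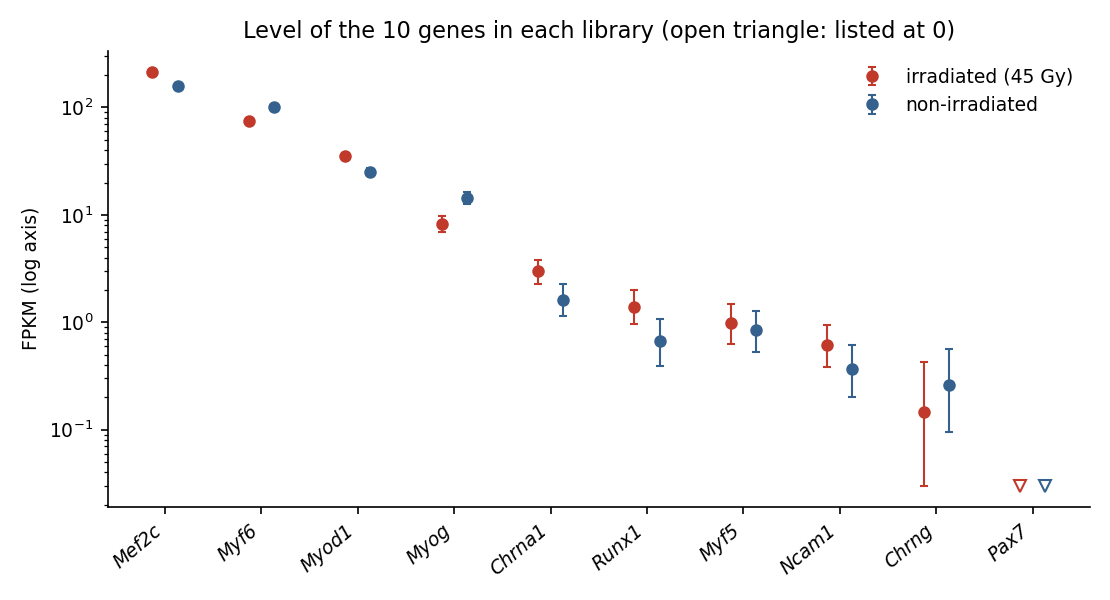
FPKM of each gene (log axis) in irradiated (red, left) and non-irradiated (blue, right) skin, with bars for the 95% exact Poisson interval of its reads. Levels ran from 212 FPKM for Mef2c in the irradiated library down to Chrng at 0.146 FPKM there, and Pax7 was listed at 0 in both.

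Myf6 was the most abundant MyoD family member in both libraries and was lower in irradiated skin. Myf6 (ENSRNOG00000004878, chromosome 7, 49749553 to 49751448, minus strand; the build of the deposited coordinates is not given in the sources used here) stood at 74.7 FPKM in irradiated, against 101.7 FPKM in non-irradiated skin. These values rested on 1060 against 1611 reads, and the 95% exact counting interval of the log2 ratio of scaled counts was -0.57 to -0.34. Intervals of this kind compare the 2 libraries and cover counting error only. They left out equality for 60.5% of the 9743 genes, lying wholly above it for 44.5% and wholly below it for 15.9%. Such an interval is therefore no sign that a gene stands apart. Among the genes of the set 4 lay wholly above equality and 2 wholly below, all of them among the 6 that reached 1 FPKM.

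Myog, the differentiation factor, was lower as well. Myog (ENSRNOG00000030743, chromosome 13, 56182746 to 56185336, plus strand) stood at 8.29 FPKM in irradiated and 14.4 FPKM in non-irradiated skin, on 131 against 253 reads, with an interval of -1.12 to -0.49. Its level was 0.578 of the non-irradiated one in FPKM, the lowest among the 6 genes that reached 1 FPKM. Myod1, the factor of activated satellite cells and of fast fibres, went the other way. Myod1 (ENSRNOG00000011306, chromosome 1, 103481603 to 103484314, plus strand) stood at 35.0 FPKM in irradiated and 25.1 FPKM in non-irradiated skin, on 771 against 616 reads, with an interval of 0.32 to 0.63. Myf5, the earliest factor of the family in development, was low in both libraries. Myf5 (ENSRNOG00000004768, chromosome 7, 49739440 to 49742672, minus strand) stood at 0.984 FPKM in irradiated and 0.845 FPKM in non-irradiated skin, on 23 against 22 reads. Its interval of -0.69 to 1.13 held equality, and a 2-fold difference in favour of irradiated skin lay within it. Myf5 and Myf6 are neighbours on the same strand, 6880 bases apart in the deposited coordinates, yet their levels differed by more than the counting intervals in either library.

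The make-up of the family differed between the libraries although the order Myf6, Myod1, Myog, Myf5 was shared. Myf6 made up 62.8% of the summed family FPKM in irradiated and 71.6% in non-irradiated skin, Myod1 29.4% and 17.7%, and Myog 6.97% and 10.1%. As shares of reads, with 95% exact Clopper-Pearson intervals for counting error, Myf6 took 53.4% (51.2 to 55.6%) in irradiated against 64.4% (62.5 to 66.3%) in non-irradiated skin. Myod1 took 38.8% (36.7 to 41.0%) against 24.6% (22.9 to 26.4%). Myf6 was 2.14 times Myod1 in FPKM in irradiated skin and 4.05 times Myod1 in non-irradiated skin. The summed family level was 119 FPKM in irradiated against 142 FPKM in non-irradiated skin. The 18 markers of mature fibres summed to 303899 against 327327 FPKM, a ratio of 0.928. With the libraries rescaled to equal sums of these markers, Myod1 had a log2 ratio of 0.57, Myf6 of -0.33 and Myog of -0.63. The log2 ratio of the sums was only -0.11, so this rescaling could not have changed these signs. Single markers had log2 ratios from -0.84 to 1.37, with a median of -0.25 against 0.21 for all genes. Rescaling to single markers was not tested.

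**Figure D2:**
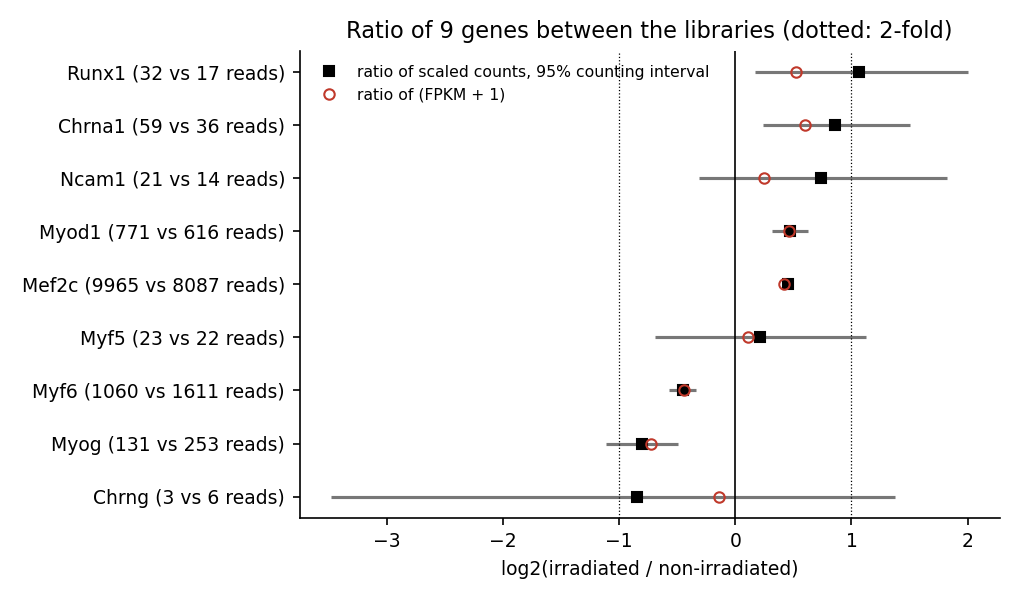
log2 ratio of irradiated over non-irradiated skin for 9 genes, with the ratio of scaled counts and its 95% counting interval (squares and lines) and the ratio of FPKM + 1 (circles); dotted lines mark 2-fold. The intervals of Myf6 and Myog lie below 0, those of Mef2c, Myod1, Chrna1 and Runx1 above 0, and those of Myf5, Ncam1 and Chrng hold 0; Pax7 had no reads.

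Mef2c was the most abundant gene of the set. This factor works with the MyoD family in muscle and is also active in endothelium, smooth muscle and blood cells. Mef2c (ENSRNOG00000033134, chromosome 2, 11521047 to 11684948, plus strand) stood at 212 FPKM in irradiated and 158 FPKM in non-irradiated skin, on 9965 against 8087 reads, with an interval of 0.41 to 0.49. It made up 91.4% of the summed MEF2 family FPKM in irradiated and 89.7% in non-irradiated skin. Its relatives were far lower: Mef2a stood at 13.6 against 12.1 FPKM and Mef2d at 6.31 against 5.93 FPKM, while Mef2b rested on 1 against 3 reads. The intervals of Mef2a (-0.01 to 0.35) and Mef2d (-0.24 to 0.41) held equality. Of 10 endothelial markers 8 reached 1 FPKM, of which 2 (Emcn and Plvap) were at least 2-fold lower and none higher in irradiated skin. Of all genes, 1.53% were lower and 9.70% higher by that much. The 10 markers summed to 28.1 against 43.3 FPKM, with no marker at 0. The leukocyte and myeloid markers summed to 143 against 128 FPKM, with no marker at 0 and none of 8 beyond 2-fold (11.2% of all genes). All 6 matched smooth muscle markers reached 1 FPKM. Of these, 3 (Myh11, Cnn1 and Actg2) were at least 2-fold higher and 1 (Lmod1) was at least 2-fold lower. The part of these cells in the Mef2c level was not tested.

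Among partners, repressors and relatives of the factors, no gene that reached 1 FPKM was beyond 2-fold, against 11.2% of all genes. Of 23 listed genes 16 reached 1 FPKM, with a median log2 ratio of 0.15 against 0.21 for all genes. Below that level some differed in their reads. Mdfi, an inhibitor of MyoD family proteins, had 24 reads in irradiated and 1 read in non-irradiated skin, while Msc, a helix-loop-helix repressor, had 0 against 8 reads and Eya4, a transcription cofactor, 0 against 6 reads. Among the E proteins, with which MyoD factors pair, Tcf3 stood at 7.97 against 6.46 FPKM, Tcf4 at 4.36 against 4.62 FPKM and Tcf12 at 1.97 against 1.95 FPKM (irradiated against non-irradiated). Among the 16 genes the largest ratio was that of Id2 (log2 0.59), a protein that sequesters E proteins, at 10.3 against 6.53 FPKM. Hdac7, a class IIa deacetylase that represses MEF2, had a log2 ratio of 0.53. Vgll2, a muscle cofactor of TEAD proteins, stood at 35.8 against 25.3 FPKM.

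Pax7 (ENSRNOG00000018739, chromosome 5, 161947624 to 162044971, minus strand) was listed at 0 in both libraries. The estimated totals were 11197467 reads for irradiated and 12649558 reads for non-irradiated skin, and a count of 0 allows up to 3 reads in each. Pax7 transcripts were thus not detectable at this depth, and no ratio can be given. Other genes of satellite cells were present. Of 22 listed genes 14 reached 1 FPKM, of which 3 (21.4%, against 9.70% of all genes) were at least 2-fold higher. None was 2-fold lower (1.53% of all genes) and 11 differed by less than 2-fold. The median was 0.44 against 0.21 for all genes. Itga7, the laminin receptor of muscle, stood at 17.2 against 14.0 FPKM and Cdh15, the muscle cadherin, at 7.83 against 7.66 FPKM (irradiated against non-irradiated). Lower in irradiated skin were Vcam1, an adhesion molecule, at 1.30 against 2.37 FPKM with an interval of -1.42 to -0.34, and Calcr, the calcitonin receptor of quiescent satellite cells, on 2 against 16 reads. Notch1 stood at 4.88 against 0.964 FPKM (log2 1.58), its target Hes1 at 20.9 against 8.73 FPKM (1.17), and Spry1, an inhibitor of growth factor signalling, at 5.93 against 2.38 FPKM (1.03). Epidermis and hair follicle also express Notch1 and Hes1. In the same comparison 7 of 8 basal keratinocyte markers that reached 1 FPKM were at least 2-fold higher, against 9.70% of all genes. Over 9 markers the sums were 1176 against 67.6 FPKM, with none at 0. The part of these cells in the Notch1 and Hes1 values was not tested. With the median ratio of all genes set to 0, 1 of the 14 satellite cell genes was at least 2-fold higher, against 7.29% of all genes.

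The receptor subunits differed among themselves. Chrna1 (ENSRNOG00000018286, chromosome 3, 66925969 to 66940958, minus strand) stood at 2.98 FPKM in irradiated and 1.63 FPKM in non-irradiated skin, on 59 against 36 reads, with 0.24 as the lower bound of its interval. Chrnb1 stood at 19.5 against 11.7 FPKM (log2 0.70), on 510 against 339 reads, with an interval of 0.54 to 0.94. Chrnd was near equal at 1.01 FPKM in irradiated and 1.04 FPKM in non-irradiated skin, on 19 against 22 reads. The adult subunit Chrne stood at 5.48 against 4.51 FPKM on 98 against 90 reads, and its interval of -0.16 to 0.70 held equality. The fetal subunit Chrng (ENSRNOG00000019602, chromosome 9, 94025809 to 94032183, plus strand) was at 0.146 FPKM in irradiated and 0.262 FPKM in non-irradiated skin, on 3 against 6 reads. Its interval of -3.48 to 1.38 held equality and spanned more than 2-fold in either direction.

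The adult subunit therefore exceeded the fetal one in both libraries. Chrng made up 2.59% of the summed FPKM of Chrng and Chrne in irradiated and 5.48% in non-irradiated skin. As shares of reads these were 2.97% (exact interval 0.617 to 8.44%) against 6.25% (2.33 to 13.1%), which overlap. Both promoters printed above hold CAGCTG, but the letters CCGGAA were found only in that of Chrne among these 2 windows; Chrnd also held them, on the other strand.

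**Figure D3:**
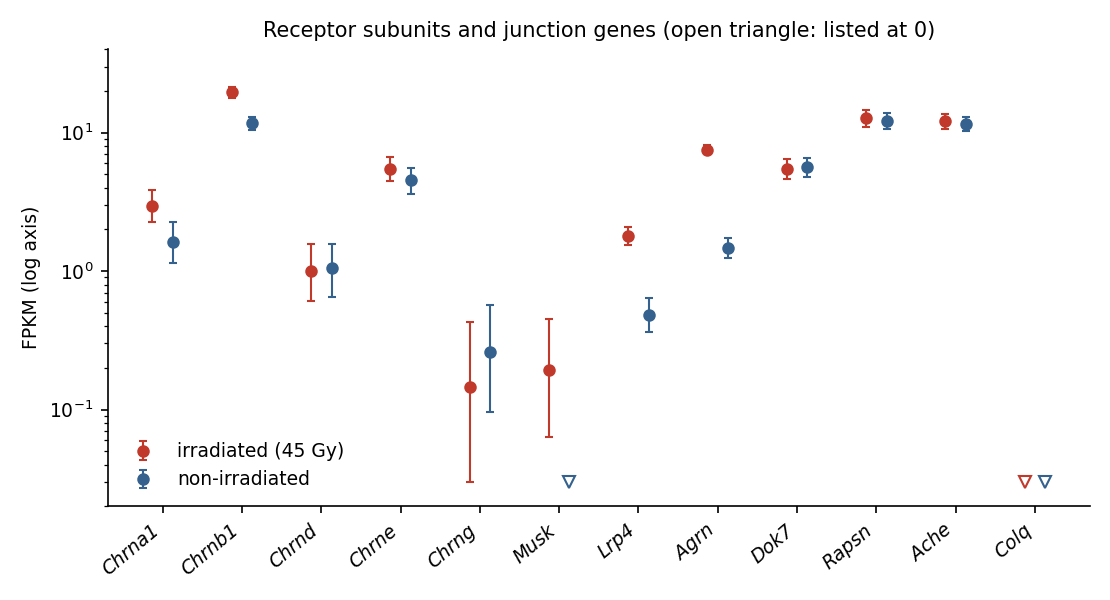
FPKM (log axis) of the receptor subunits and of junction genes in irradiated (red, left) and non-irradiated (blue, right) skin, with 95% exact Poisson intervals of the reads. Agrn and Lrp4 show the widest gaps between the libraries with intervals that do not overlap, while Dok7, Rapsn and Ache overlap; Colq was listed at 0 in both and Musk in the non-irradiated library.

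Around the receptor, genes of the neuromuscular junction were mixed. Of 16 listed junction genes 11 reached 1 FPKM, of which 1 (9.09%, near the 9.70% of all genes) was at least 2-fold higher. None was 2-fold lower (1.53% of all genes) and 10 differed by less than 2-fold. The median was 0.06 against 0.21 for all genes. Rapsn, which anchors the receptor, stood at 12.7 against 12.2 FPKM, and Dok7, the activator of the kinase MuSK, at 5.50 against 5.61 FPKM (irradiated against non-irradiated). Ache, acetylcholinesterase, stood at 12.1 against 11.6 FPKM. The gene beyond 2-fold was Agrn, which encodes the nerve signal agrin that clusters receptors, at 7.54 against 1.48 FPKM (log2 1.79). Lrp4, the agrin receptor, stood at 1.79 against 0.484 FPKM, with a log2 ratio of 0.91 and an interval of scaled counts of 1.43 to 2.37. Agrn and Lrp4 are also expressed outside muscle, in basement membranes and epithelia, and their part from other cells was not tested. Among junction genes below 1 FPKM, Erbb3, a neuregulin receptor, had 38 against 14 reads, its ligand Nrg1 had 12 against 0, the adaptor Crkl 12 against 2 and Musk 5 against 0 (irradiated against non-irradiated).

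Runx1 and Ncam1, both named for their response to denervation, were low in both libraries. Runx1 (ENSRNOG00000001704, chromosome 11, 36371332 to 36460969, minus strand) stood at 1.40 FPKM in irradiated and 0.669 FPKM in non-irradiated skin, on 32 against 17 reads. Its level was 2.10-fold in FPKM without the added 1, against a log2 ratio of 0.53 with it, and 0.17 was the lower bound of the interval of scaled counts. Runx1 was thus the one gene of the set whose side of the 2-fold line depended on the added value. Ncam1 (ENSRNOG00000031890, chromosome 8, 52458774 to 52522326, minus strand), a cell adhesion molecule, stood at 0.617 FPKM in irradiated and 0.367 FPKM in non-irradiated skin, on 21 against 14 reads, with an interval of -0.31 to 1.82 that held equality. Of the relatives of Runx1, Runx2 rested on 36 against 6 reads, Runx3 had 0 in both, and the shared partner Cbfb stood at 12.6 against 13.2 FPKM.

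Neither gene is restricted to muscle: hair follicle and blood cells also express Runx1, and Schwann cells and natural killer cells express Ncam1. Of 14 hair follicle markers 10 reached 1 FPKM and 9 of these were at least 2-fold higher, against 9.70% of all genes. The 14 summed to 155 against 46.3 FPKM, with Krt72 at 0 in non-irradiated skin. Of 12 Schwann cell and nerve markers 6 reached 1 FPKM and 3 of these were at least 2-fold higher, against the same 9.70%. The 12 summed to 106.8 against 58.8 FPKM. Cdh19 was at 0 in the irradiated library, and Mag and Nefl were at 0 in the non-irradiated library. The 11 markers of T and natural killer cells summed to 1.80 against 1.07 FPKM with none at 1 FPKM, and Cd3d, Cd3g, Klrb1 and Gzmb were at 0 in both. The part of these cells in the Runx1 and Ncam1 values was not tested.

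Other genes that respond to denervation had ratios of both signs. Of 17 listed genes, which include Chrnb1, Chrnd and Musk, 11 reached 1 FPKM and 7 of these had positive ratios. Most of all 9743 genes did too: in their order from the highest down, positive ratios ended between places 6617 and 6665. The median of the 11 was 0.62 against 0.21 for all genes. At least 2-fold higher was 1 gene (9.09%, near the 9.70% of all genes). None was 2-fold lower (1.53% of all genes) and 10 differed by less than 2-fold. The one gene beyond 2-fold was Cdkn1a, the p21 gene, a p53 target as well, at 57.9 against 17.7 FPKM. Trim63, the ubiquitin ligase MuRF1 of muscle atrophy, stood at 64.4 against 41.6 FPKM (log2 0.62), and Sln, an inhibitor of the muscle calcium pump, at 76.2 against 42.9 FPKM (0.82). Fbxo32, the other well-known ligase of atrophy, rested on 15 against 23 reads, with an interval of -1.51 to 0.53 that held equality. Gadd45a stood at 27.6 against 30.2 FPKM, and Gap43, a growth protein of axons, at 3.27 against 5.25 FPKM. Higher in irradiated skin were Ampd3 at 2.40 against 1.08 FPKM, Trim16 at 3.76 against 1.97 FPKM and Fbxo30 at 1.80 against 1.22 FPKM. Dach2, a repressor of Myog, was listed at 0 in both libraries.

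Genes of fusion and immature muscle split into higher and lower ones. Of 14 matched genes 12 reached 1 FPKM, of which 3 (25.0%, against 9.70% of all genes) were at least 2-fold higher. None was 2-fold lower (1.53% of all genes) and 9 differed by less than 2-fold. The median was 0.01 against 0.21 for all genes. Igf2, a growth factor of fetal tissue and muscle, stood at 35.8 against 6.40 FPKM (log2 2.31), and Myh3, the embryonic myosin, at 39.2 against 8.98 FPKM (2.01). Tnnt2, the cardiac and embryonic troponin T, stood at 8.43 against 2.35 FPKM (1.49). The perinatal myosin Myh8 stood at 3.69 against 5.63 FPKM (-0.50) and Actc1, the cardiac and fetal actin, at 4.35 against 7.03 FPKM (-0.59). Igfbp5, a binding protein of insulin-like growth factors, had the lowest ratio of the list at -0.86, with 54.9 against 100.3 FPKM. Tmem8c, the symbol in the table for the fusion protein myomaker, rested on 4 against 10 reads. Myog and Myf6 thus stood on the lower side in the same library in which Myh3 was higher.

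**Figure D4:**
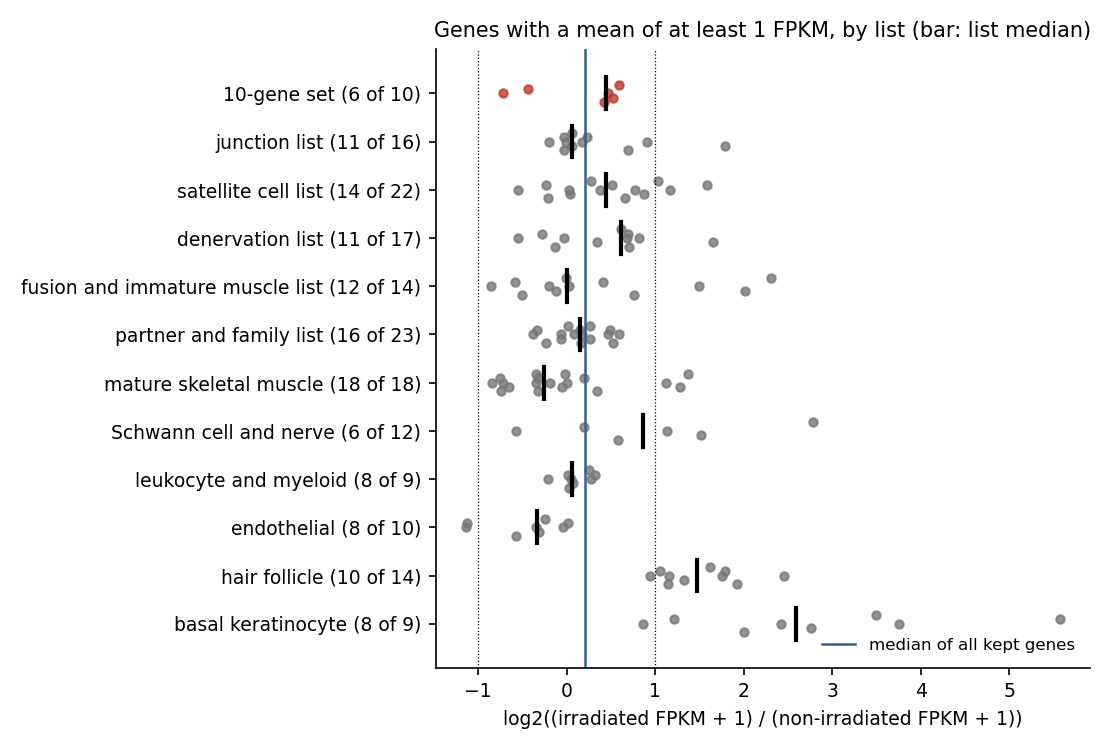
log2 ratio of each gene with a mean of at least 1 FPKM in the 10-gene set (red) and in fixed lists (grey), with the list median as a black bar, the median of all kept genes as a blue line at 0.21, and 2-fold as dotted lines; labels give the number of genes shown of those matched. All 6 genes of the set lie between the dotted lines, while most basal keratinocyte and hair follicle markers lie to the right of 2-fold.

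By level, Mef2c, Myf6, Myod1, Myog and Chrna1 came first in that order in both libraries, and the Poisson intervals of these 5 did not overlap in irradiated skin. Below them the order was Runx1, Myf5, Ncam1 and Chrng in irradiated skin, where neighbours had overlapping intervals. In non-irradiated skin it was Myf5, Runx1, Ncam1 and Chrng, again with overlapping neighbours, and the interval of Chrna1 (1.14 to 2.26 FPKM) also overlapped that of Myf5 (0.530 to 1.28 FPKM). Among all 22312 genes, Mef2c held place 412 by FPKM in irradiated and 477 in non-irradiated skin, Myf6 869 and 662, Myod1 1607 and 1893, and Myog 4307 and 2777.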

How the data were processed

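RNA of 1 library per group was measured by stranded total RNA sequencing after removal of ribosomal RNA, per the labels' protocols. HISAT2 2.0.4, cutadapt 1.9.3, Cuffdiff and Cufflinks were used per the submitters' processing notes; build, annotation and strand setting are not stated there, so values of overlapping genes and close copies are uncertain. The authors deposited FPKM values and a column headed count, whose values are a scaled signal: they are multiples of 1.05 (irradiated) and 0.951 (non-irradiated), and 97.7% and 98.0% of those above 0 came out whole within 0.01 of a read plus 1e-05 per read. Division by these steps gave the reads, in total 11197467 and 12649558. Of 22714 rows, those with the same symbol were summed to 22312 genes, and 9743 (43.7%) had a mean of at least 1 FPKM. Columns were matched to libraries by title; 0 per-sample columns were left unused. No count model and no p-value was computed, since there were no replicates. Counting intervals are 95% exact Clopper-Pearson intervals of the read ratio; they and the Poisson intervals cover counting error only, PCR copies not being independent. All 10 genes were named whatever their values; from each list the 2 largest ratios, the 2 highest means, genes beyond 2-fold and fixed relatives were named, and other list genes named in the text were chosen after their values were seen. A gene that this rule names is not reported here. The genes and lists were chosen with earlier results of these data known. Steps were tested on simulated data. Python 3.11.15, pandas 2.3.3 and scipy 1.17.1 were used. Alternatives changed the added value, filter, scaling and threshold.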

Additional observations from a re-analysis of the deposited data

How the results depend on the processing

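Of 11 alternatives, 9 were fixed with the design and 2 (no pseudocount, and equal summed muscle markers) were chosen after seeing the data. The count of set genes at least 2-fold higher, 0, became 1 (Runx1) with no pseudocount and 1 (Chrna1) at a 1.5-fold threshold; the count of lower ones became 1 (Myog) at 1.5-fold, where 23.8% and 5.22% of all genes were called. The median of the set, 0.44, was 0.17 with no filter and 0.14 under trimmed-mean scaling, where that of all genes was 0.02 and -0.04. At 1.5-fold the higher genes numbered 3 for the junction list, 6 for the satellite cell list, 6 for the denervation list and 1 for the partner list. They numbered 2, 5 and 2 for the junction, satellite cell and denervation lists with a pseudocount of 0.1, with none, and on scaled counts, where 16.0%, 16.1% and 12.7% of all genes were higher; 0 for the junction and satellite cell lists with a pseudocount of 5 (2.73% of all genes); 1 for the satellite cell list with the median ratio at 0 and under trimmed-mean scaling (7.29% and 6.64%); and 1 for the partner list (Mdfi) with no filter or a mean of at least 0.5 FPKM. The cause of these differences was not tested. Of 326 values of 41 named genes, 267 stayed the same or moved by less than 0.5 of the width of their counting interval. The other 59 moved by more, and no gene beyond 2-fold changed sign. Pax7 and Runx3, with no reads and no interval, stayed at 0 and are among the 267. Among the set, Myf5 changed sign, to -0.04 under trimmed-mean scaling, and the other 8 genes with reads kept theirs. No paired analysis was possible because each group had 1 library, and no library could be left out. The counting intervals of Myf5, Ncam1 and Chrng, on 3 to 23 reads, held both equality and a 2-fold difference, which depth could not separate.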

Other observations

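Of 16 nicotinic receptor subunit genes in the table, the 11 outside the muscle receptor had at most 3 reads in either library, and 6 of them had none in both. Their reads summed to 7 in irradiated and 3 in non-irradiated skin, against 689 and 493 reads for the 5 muscle subunits. Among the nerve markers, Mbp stood at 21.6 FPKM in irradiated against 2.27 FPKM in non-irradiated skin while S100b stood at 4.06 against 6.51 FPKM. Snap25, a synaptic protein on the neuron list, had 71 reads in irradiated and 1 read in non-irradiated skin, and the counting interval of its log2 ratio was 3.77 to 11.6. These genes were picked after their values were seen.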
